A study of Drosophila melanogaster with 2 samples.

Results

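The sperm leucyl aminopeptidases of Drosophila melanogaster form a family of 8 genes: S-Lap1, S-Lap2, S-Lap3, S-Lap4, S-Lap5, S-Lap7, S-Lap8 and loopin-1, for which S-Lap6 is a synonym. The members were taken by gene symbol, and all 8 were found among the 15906 features of the deposited table. Expression was measured in whole 15-day-old adult males, in 1 library of each of 2 groups. Control males carried the daughterless driver alone (da-Gal4/+). The males called miR-305 carried the driver together with a microRNA transgene (da-Gal4/UAS-miR305). Both groups therefore share the da-Gal4 driver, which is active in nearly all cells, so expression of the transgene was not directed at the testis. How many flies were pooled is not stated in the labels. With 1 library per group no difference between the groups has a replicate check, no test exists and no p-value is given.

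Leucyl aminopeptidases are metal-dependent enzymes that remove amino acids from the amino end of peptides, and most animals use them as general housekeeping enzymes. In Drosophila the family has expanded into copies that are transcribed in the testis and are among the most abundant proteins of mature sperm. Several of these copies have lost residues needed for catalysis. The proteins accumulate in the giant mitochondrial derivatives that run along the sperm tail, where they contribute to a dense paracrystalline material, and males with defects in individual members can be sterile. Loopin-1 was named after the lampbrush-like Y chromosome loops of spermatocytes and is itself a member of the family.

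Expression is given as FPKM (fragments per kilobase, corrected for the number of mapped fragments), so values may be compared between genes of unequal length. The mir-305 feature differed as the labels say, with 0 FPKM listed in the control library and 546 FPKM in the miR-305 library. These are values of that feature in RNA libraries and not levels of the mature microRNA. Male marker RNAs were present in both, with roX1 at 295 and 297 FPKM and roX2 at 25.8 and 27.2 FPKM in control and miR-305. The yolk protein genes of females were low, with Yp1 at 0.50 and 0.23 FPKM, Yp2 at 0.61 and 0.44 FPKM and Yp3 at 5.69 and 4.79 FPKM. Testis markers spanned 2.90 FPKM for can to 491 FPKM for Mst87F in control. The germ line is thus sampled together with all other tissues, and fewer testis cells cannot be told apart from less RNA per cell.

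All 8 members were lower in the miR-305 library than in the control library as deposited. The family summed to 1523 FPKM in control and 1177 FPKM in miR-305, a 1.29-fold lower sum. The log2 ratios, computed on FPKM + 1, ran from -0.47 to -0.24 with a median of -0.42. By contrast, the median was -0.03 over the 11936 tested features (those whose mean FPKM reached 1), with quartiles of -0.24 and 0.18. The direction depended on the scale. It stayed for all 8 when the libraries were brought to the same sum, the same median or the same upper quartile, but 4 of the 8 lay above 0 when they were brought to the same summed FPKM of 4 lists of other testis genes. That sum rests in part on Mst84Da and Mst84Dd, the 2 genes with the lowest ratios of the 4 lists. Leaving them out, a setting added after seeing the data, could only lower the members' ratios, and put all 8 below 0. With the median ratio of the testis lists set to equality, also added later, 7 of 8 lay below 0 and loopin-1 above it. Of the 11936 tested features, 9737 lay below 0 at the same sum, 5252 at the same median and 6214 at the same upper quartile. At the same testis list sum 1884 lay below 0, and 3927 with Mst84Da and Mst84Dd left out of that sum. With the median ratio of the testis lists set to equality 2759 lay below 0.

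**Figure D1:**
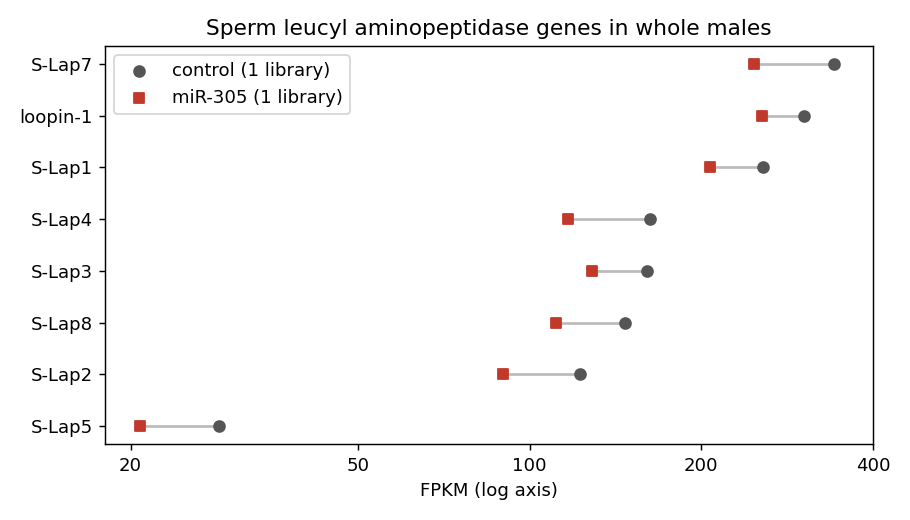
FPKM (log axis) of each sperm leucyl aminopeptidase in the control library (circles) and the miR-305 library (squares), 1 library per group and no error bars. Each square lies to the left of its circle at the deposited scaling, and S-Lap5 stands below the other 7 in both libraries. At the same testis list sum 4 of the 8 squares would lie to the right. In settings added after seeing the data, 0 of the 8 would do so without Mst84Da and Mst84Dd in that sum. Only loopin-1 would with the median ratio of the testis lists set to equality.

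S-Lap7 (FBgn0033868, chromosome 2R, 13778124 to 13780245, minus strand, dm6) had the highest level of the family in control. It had 342 FPKM there and 248 FPKM in the miR-305 library, a 1.38-fold lower value. Loopin-1 (FBgn0259795, 2R, 16534943 to 16537086, plus strand) came next in control with 303 FPKM and was first in the miR-305 library with 256 FPKM. Its difference was the smallest of the family at 1.19-fold. S-Lap1 (FBgn0035915, 3L, 8617235 to 8619474, plus strand) was the third in both libraries, with 256 and 207 FPKM. These 3 genes supplied 59.2% of the family's FPKM in control and 60.3% in miR-305.

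A middle group of 4 genes lay close together in level. S-Lap4 (FBgn0052064, 3L, 10490861 to 10492934, plus strand) had 162 FPKM in control and 117 FPKM in miR-305, and its log2 ratio of -0.47 was the lowest of the family. S-Lap3 (FBgn0045770, 3L, 10465187 to 10468974, plus strand) had nearly the same control level, 161 FPKM, but 128 FPKM in miR-305, so S-Lap3 and S-Lap4 changed places in the order. S-Lap8 (FBgn0034132, 2R, 16491100 to 16493233, plus strand) had 147 FPKM in control and 111 FPKM in miR-305. S-Lap2 (FBgn0052351, 3L, 8619888 to 8622091, plus strand) had 123 and 89.7 FPKM. With no replicates, it cannot be said which neighbours in this order differ in level beyond their spread.

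S-Lap5 (FBgn0033860, 2R, 13596677 to 13598750, plus strand) stood apart as the member with the least RNA. It had 28.6 FPKM in control and 20.8 FPKM in miR-305, so the top member exceeded it 12.0-fold in control and 12.3-fold in miR-305. Its own ratio lay within the range of the family, towards the lower end, at 1.38-fold lower. The weakest and the strongest member of the control library thus had almost the same fold. Among all 15906 features, the members ranked from 391 (S-Lap7) to 3259 (S-Lap5) by FPKM in control and from 552 (loopin-1) to 4150 (S-Lap5) in miR-305.

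Of the 8 members, 0 reached a 2-fold difference, a size that 4.11% of the tested features passed in either direction, 2.36% as higher and 1.74% as lower. At a smaller size, a log2 ratio of -0.32 or below, 5 of 8 members passed (S-Lap2, S-Lap4, S-Lap5, S-Lap7 and S-Lap8), where 18.1% of all tested features did and 14.3% were higher by the same size. S-Lap3 missed that size narrowly, and 6 members passed it with a pseudocount of 0.1 in place of 1. The count rested on the scaling. With the same sum 8 of 8 members passed, where 42.8% of all tested features did. With the same testis list sum 0 of 8 passed, where 4.42% did. Without Mst84Da and Mst84Dd in that sum it was also 0 of 8, where 9.44% of all did. With the median ratio of the testis lists set to equality it was 0 of 8, where 6.17% did. At the deposited scaling a ratio below 0 was shared by 53.6% of all tested features. Between 9.43% of the tested features (for S-Lap4) and 24.5% (for loopin-1) had a ratio lower than that of the member.

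The log2 ratios of the 8 genes had an SD of 0.085 and a total range of 0.23, and 15.1% of all tested features had a ratio within that range. Among the 52 expressed genes of the 4 other testis lists, which had quartiles of -0.46 and 0.00, 17 lay within the range of the family. This SD and these ranges describe the scatter among genes and not an error between flies.

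The make-up of the family was almost the same in both libraries. S-Lap7 supplied 22.5% of the family's FPKM in control and 21.0% in miR-305, and loopin-1 supplied 19.9% and 21.7%. The latter was the largest shift, at 1.81 percentage points. S-Lap5 supplied 1.88% and 1.76%. These shares compare members within a library and so are the same under any scaling of the libraries.

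**Figure D2:**
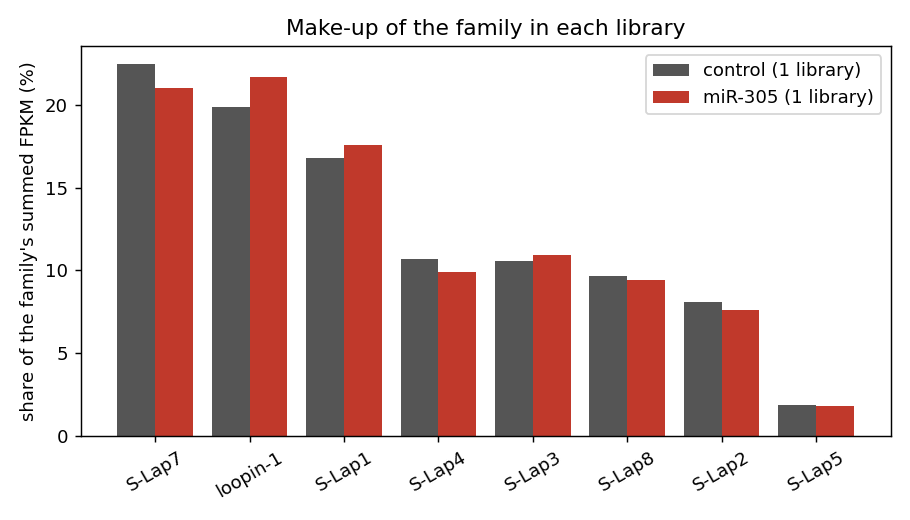
Share of the family's summed FPKM (percent) supplied by each member in the control library (grey bars) and the miR-305 library (red bars), 1 library per group. S-Lap7 is the largest part in control (22.5%) and loopin-1 in miR-305 (21.7%), and the shares of the other members differ by less than a percentage point.

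The genes lie in neighbourhoods on 2 chromosome arms, with 4 members on 2R and 4 on 3L. S-Lap1 and S-Lap2 stand in tandem on the same strand with 413 nt between them. S-Lap3 and S-Lap4 are 21.9 kb apart, S-Lap8 and loopin-1 41.7 kb apart, and S-Lap5 and S-Lap7 179.4 kb apart. The summed FPKM of the 2R members was 821 in control and 635 in miR-305, and that of the 3L members was 702 and 542, which are 1.29-fold and 1.30-fold lower. The pair nearest in position did not have the closest ratios. The tandem genes S-Lap1 (-0.31) and S-Lap2 (-0.45) differed by 0.14 on the log2 scale, whereas S-Lap5 and S-Lap7, much farther apart, differed by 0.02. S-Lap1 had 2.09 times the FPKM of S-Lap2 in control and 2.31 times in miR-305.

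In gene structure the members are alike. The annotated proteins have 524 (S-Lap4) to 555 (S-Lap1) residues, and the transcripts that encode them have 2055 (S-Lap8) to 2640 nt (S-Lap3). S-Lap3, S-Lap4, S-Lap5 and S-Lap7 are encoded in 1 exon in these transcripts, S-Lap8 and loopin-1 in 2 exons, and S-Lap1 and S-Lap2 in 3 exons. The single-exon genes included the highest level in control (S-Lap7) and the lowest (S-Lap5). Because the members are paralogs, reads from stretches shared by near-identical copies are of uncertain assignment, and how many such reads there were was not measured.

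Genes beside the family mostly lay nearer to equal at the deposited scaling. CG6282, which ends 160 nt before S-Lap1, had 2.55 FPKM in control and 2.50 FPKM in miR-305. The splicing factor gene fand, 119 nt before S-Lap5, had 11.2 and 11.6 FPKM, and CG43058 on the other side had 10.8 and 10.4 FPKM. The muscle gene Zasp66, the neighbour of S-Lap2, had 301 and 282 FPKM. Sema2a, an axon guidance gene before loopin-1, had 4.86 and 5.32 FPKM, and Syn2 on its other side had 5.32 and 4.86 FPKM. CG33459, CG6280 and the cuticle protein gene Cpr50Ca were below 0.2 FPKM in both libraries, and the noncoding RNA CR43810 near S-Lap7 had 5.70 and 6.71 FPKM.

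A pair of neighbours were lower by more than any member of the family. The gene knon, 3655 nt beyond S-Lap8 on the opposite strand, encodes a testis form of a subunit of the mitochondrial ATP synthase that spermatid mitochondria need for their shape. It had 21.0 FPKM in control and 11.7 FPKM in miR-305, a 1.80-fold lower value. CG32061, 551 nt before S-Lap3, had 13.9 and 8.06 FPKM, 1.72-fold lower. Both stayed within 2-fold.

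Some members overlap other genes. S-Lap4 lies in an intron of Rbfox1, an RNA-binding splicing regulator on the same strand, and S-Lap7 lies in an intron of Cpr50Ca on the opposite strand, with 0 nt of shared exon in each case. Rbfox1 had 5.78 FPKM in control and 3.81 FPKM in miR-305, a log2 ratio of -0.50 beside the -0.47 of S-Lap4. Its level was far below that of the nested gene. S-Lap2 shares 53 nt of exon with GAPsec, a gene on the opposite strand for a regulator of Rab proteins, which had 5.80 and 5.19 FPKM. The part of such overlaps in the members' values was not tested.

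Other genes of sperm formation were described by list to place the family. The spermatocyte transcription regulators, which switch on the testis program before meiosis, had a median log2 ratio of 0.03 over 11 expressed genes of 13, with 5 below 0. The direction of this list turned with the scaling, as did that of all features. At the same sum its median was -0.19 with 9 of 11 below 0, beside all tested features (median -0.27, 9737 of 11936 below 0). At the same testis list sum it was 0.37 with 2 of 11 below 0 (0.35 and 1884 of 11936 for all). These values for all features also stand beside the scaled counts of the lists below. Levels of the spermatocyte regulators were low, and the added 1 draws their ratios towards 0. The lowest were mia (6.75 FPKM in control and 4.94 in miR-305) and nht (5.24 and 3.89), and the highest were sa (4.44 and 5.82) and wuc (9.27 and 11.3). The markers aly (3.59 and 3.70) and can (2.90 and 2.46) lay between these. No gene of this list was past 2-fold.

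Cup and comet genes, which are transcribed in elongating spermatids after meiosis, had a median of -0.29 over 17 expressed genes of 22, with 15 below 0 and 0 past 2-fold. At the same sum the median was -0.54 with 17 below 0, and at the same testis list sum it was 0.11 with 5 below 0. The lowest were h-cup (24.1 FPKM in control and 15.4 in miR-305) and soti (33.5 and 22.0), which encodes an inhibitor of a ubiquitin ligase of sperm individualisation. The highest were scpr-B (13.8 in both libraries) and d-cup (3.64 and 4.28). The median of the leucyl aminopeptidases was lower than that of this list by their values, without a test of the difference.

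Genes listed for the sperm tail and mitochondrial derivatives, not all of them particular to the testis, had a median of -0.37 over 18 expressed genes of 21, with 14 below 0. At the same sum 17 were below 0 and 2 past 2-fold lower (median -0.64), and at the same testis list sum 8 were below 0, 0 past 2-fold lower and 1 past 2-fold higher (median 0.03). Over all 11936 tested features, 361 were past 2-fold lower at the same sum. At the same testis list sum 138 of them were past 2-fold lower and 659 past 2-fold higher. The sperm tail gene Mst84Dd was 2.13-fold lower (355 FPKM in control and 166 in miR-305) and was the only one of the list past 2-fold at the deposited scaling, and Mst84Da was 1.99-fold lower (932 and 469). At the other end Mst84Db had 240 FPKM in control and 370.4 in miR-305, and the tubulin gene alphaTub84D, which is active in many tissues, had 48.6 and 55.1. The marker dj, whose product sits along the mitochondrial derivatives beside the aminopeptidases, had 57.0 and 40.9 FPKM. Its log2 ratio of -0.47 lay at the lower edge of the family. Mst87F had 491 and 383 FPKM.

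Sperm chromatin genes had a median of -0.39 over 6 expressed genes of 6, with 5 below 0 and 0 past 2-fold. At the same sum 6 were below 0 and 1 past 2-fold lower (median -0.66), and at the same testis list sum 3 were below 0 (median 0.0058). Of all 11936 tested features, 361 were past 2-fold lower at the same sum. The lowest were Mst77F (175 FPKM in control and 104 in miR-305) and the protamine gene Mst35Ba (21.7 and 14.7), and the highest were the protamine gene Mst35Bb (17.5 and 16.4) and Prtl99C (8.22 and 9.50). Both copies of the protamine share sequence and their values are uncertain.

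**Figure D3:**
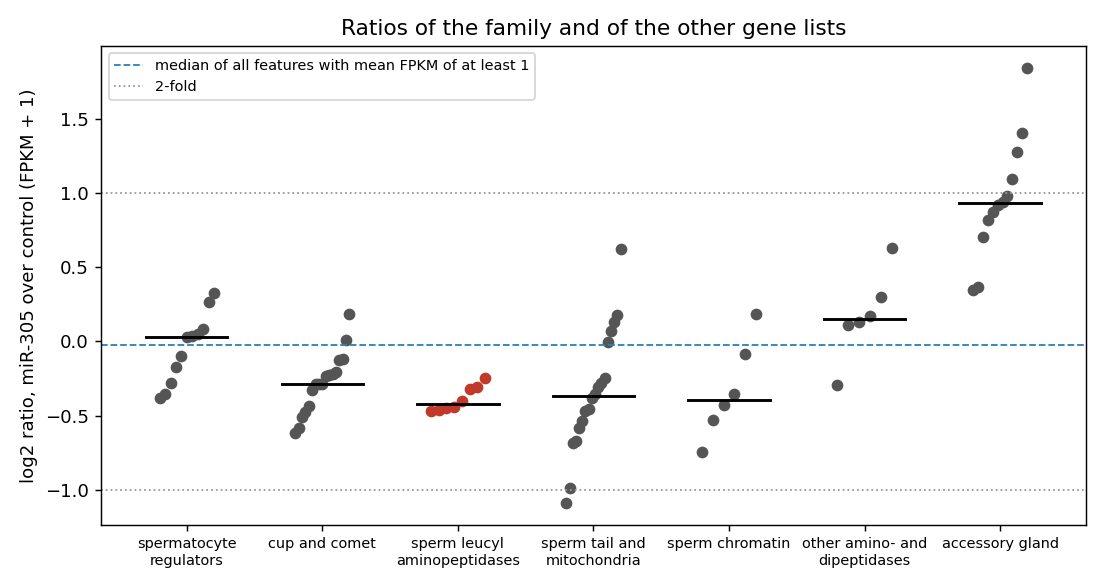
Log2 ratio of miR-305 over control FPKM + 1 for each expressed gene of 7 lists at the deposited scaling, 1 library per group; black bars are list medians, the dashed line is the median of all tested features, and dotted lines mark 2-fold. The 8 sperm leucyl aminopeptidases (red) span -0.47 to -0.24, and 4 of them would lie above 0 at the same testis list sum. In settings added after seeing the data, 0 of them would without Mst84Da and Mst84Dd in that sum. Only loopin-1 would with the median ratio of the testis lists set to equality.

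How the family compared with the 4 testis lists depended on the measure. The 52 expressed genes, not all of them particular to the testis, had a median log2 ratio of -0.28, beside -0.42 for the leucyl aminopeptidases. The same 52 genes summed to 3770 FPKM in control and 2823 FPKM in miR-305, 1.34-fold lower, beside 1.29-fold for the family. Mst84Da and Mst84Dd made up 34.2% of the lists' control sum, and the other 50 genes summed to 2482 and 2188 FPKM, 1.13-fold lower. The family's sum was accordingly 0.40 of the lists' sum in control and 0.42 in miR-305, but 0.61 and 0.54 of it without these 2 genes. With both libraries brought to the same sum over the lists, S-Lap2, S-Lap4, S-Lap5 and S-Lap7 had log2 ratios of -0.03 to -0.06, and S-Lap8 (0.01), S-Lap3 (0.09), S-Lap1 (0.11) and loopin-1 (0.17) lay above 0. The family's median was then -0.01, and that of the 52 listed genes 0.11. Leaving Mst84Da and Mst84Dd out of the sum, a setting added after seeing the data, put the members at -0.29 to -0.06, with all 8 below 0. Setting the median ratio of the testis lists to equality, also added later, put them at -0.17 to 0.06, with 7 of 8 below 0 and loopin-1 above it. How much of the family's difference goes with the amount of testis RNA in each library was not tested.

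The scaling of the libraries sets the size of the difference. The FPKM values summed to 967511 in control and 1176985 in miR-305. With the same sum the members' ratios ran from -0.75 to -0.53, still with 0 past 2-fold, and the median of all features shifted by -0.25 to -0.27. With the same testis list sum, the median of all features shifted by 0.37 to 0.35. The median of the family lay 0.40 below that of all features at the deposited scaling, 0.42 below it with the same sum and 0.36 below it with the same testis list sum. Each scaling multiplies the whole miR-305 library by 1 factor, so family and all features shift together and this gap could hardly change. Seminal fluid genes took up part of the larger sum. Their list is named for the accessory gland but also holds the ejaculatory duct gene Dup99B (16319 FPKM in control and 39538 in miR-305). Its 12 expressed genes summed to 82320 FPKM in control and 168637 FPKM in miR-305, 2.05-fold higher. Of these, 12 of 12 lay above 0, 4 of them past 2-fold. With the same sum 12 of 12 lay above 0 and 2 were past 2-fold, and with the same testis list sum 10 were past 2-fold. Over all 11936 tested features, 282 were past 2-fold higher as deposited, 178 with the same sum and 659 with the same testis list sum. Their lowest ratios were those of Acp29AB (49.6 and 63.3 FPKM) and Mst57Dc (834 and 1075), and their highest those of Acp98AB (6300 and 16697) and Acp76A (32.3 and 119). The marker genes SP (11863 and 21688) and Acp36DE (325 and 531) were among them. The part of this difference in the family's values was not tested.

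**Figure D4:**
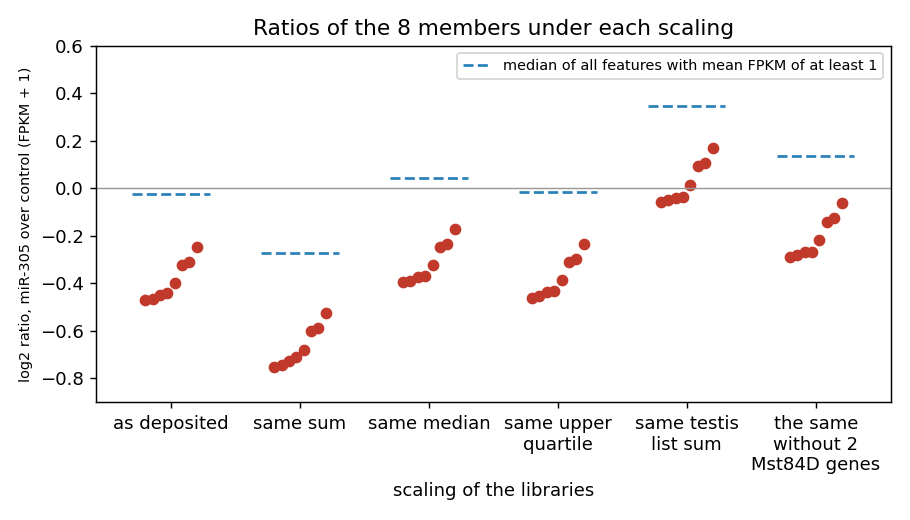
Log2 ratio of miR-305 over control FPKM + 1 for the 8 members (points) under the deposited scaling and 5 others, with the median of all tested features as dashed lines; 1 library per group. The points lie on both sides of 0 (-0.06 to 0.17) at the same testis list sum and below 0 in the other 5 columns. These include that sum without Mst84Da and Mst84Dd (-0.29 to -0.06), a setting added after seeing the data. A further such setting, the median ratio of the testis lists set to equality (-0.17 to 0.06, loopin-1 above 0), is not drawn. The points lie below the median of all features in each column, which 1 factor per library can hardly change.

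Of the aminopeptidases and dipeptidases outside the sperm family, 5 had a ratio above 0 at the deposited scaling and 1, Psa (-0.30), lay within the range of the family. Of 8 listed genes 6 had a feature of their own, with a median of 0.15, 1 below 0 and 0 past 2-fold. Their median was -0.13, with 4 below 0, once the sums were made equal. At the same testis list sum their median was 0.56, with 0 below 0 and 1 past 2-fold higher. Of all 11936 tested features, 659 were past 2-fold higher at that scaling. Dip-B had 106 FPKM in control and 116 FPKM in miR-305, and Dip-C had 41.0 and 44.3. ApepP, which cleaves before proline, had 24.0 and 27.2 FPKM, the membrane aminopeptidase SP1029 had 5.18 and 8.57 and CG5849 had 4.07 and 5.24. Psa, a puromycin-sensitive aminopeptidase, had 64.6 and 52.5 FPKM. The feature that holds grsm, a leucyl aminopeptidase used outside the sperm, together with CG14384 had 57.8 and 58.5 FPKM.

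The single-gene features whose values in both libraries lay nearest to the family's mean position, by Euclidean distance of the log2(FPKM + 1) values over the 2 libraries, were CG12057 (155 FPKM in control and 118 in miR-305), CG9921 (153 and 117), CG11892 (151 and 122), CG43935 (149 and 125) and the glutathione S-transferase gene GstE1 (145 and 118). Likeness over 2 libraries is a description of level and ratio only.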

How the data were processed

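Per the labels' protocols, Trizol RNA of whole males was made into libraries with the NEBNext Ultra Directional kit and read as 51-bp single ends. The submitters' processing notes name TopHat2 2.0.13, Cufflinks 2.2.1, FastQC 0.11.5 and the dm6 build; neither annotation nor strand setting is stated there. The authors deposited 1 FPKM value per library and feature, per the file headers. From these, log2 ratios of FPKM + 1 were computed for features whose mean FPKM reached 1 (the tested features), and "past 2-fold" refers to this scale. Symbols were looked up in the Ensembl 115 annotation of dm6 directly or by RefSeq synonym (14864 features, 93.4%); 634 features holding several symbols entered no list. An exact 0 can be a failed estimate.

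The worth of 1 read was guessed from low values of genes with 1 transcript, assuming 200-nt fragments. Values between 0.015 and 0.04 FPKM × kb were kept, with medians of 0.027 in control and 0.030 in miR-305. That fixed window itself holds the medians near its middle, so they cannot show which library was deeper. The steps were too blurred to recover whole reads, and depth is unknown. If the guess holds, S-Lap5 rests on about 2000 reads in control and 1300 in miR-305, and every other member on more.

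The members and lists were chosen with earlier results of these data known. The text names all members, the 2 highest and 2 lowest of each list, and, where they have a deposited feature, all other peptidases, the markers, the neighbours and the 5 nearest features (Np-b, CG46430 and snoRNA:Me28S-A2629 are not analysed here, and mir-275 shares a feature). "Same testis list sum" means both libraries scaled to the same summed FPKM of 4 lists of other testis genes. Some genes of these lists, such as alphaTub84D, are active in other tissues too. Planned protein, promoter and seed-match comparisons were not run, since no sequence was used here. Python 3.11.15, numpy 2.4.6, pandas 2.3.3 and matplotlib 3.10.9 were used.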

Additional observations from a re-analysis of the deposited data

How the results depend on the processing

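With 1 library per group no replicate could be left out, and no paired analysis was possible because the groups have 1 library each. The count of members past 2-fold was 0 under each pseudocount, filter and scaling tried. The median log2 ratio of the family, -0.42 as reported, was -0.43 with a pseudocount of 0.1 and -0.38 with 5. It was -0.69 with the same sum, -0.35 with the same median, -0.41 with the same upper quartile and -0.010 with the same testis list sum. With settings added after seeing the data, it was -0.24 with that sum taken without Mst84Da and Mst84Dd and -0.12 with the median ratio of the testis lists set to equality. It was -0.44 without S-Lap1, S-Lap3, S-Lap8 or loopin-1 and -0.40 without S-Lap2, S-Lap4, S-Lap5 or S-Lap7, each left out singly. The summed FPKM of the family in miR-305 was 0.77 of that in control; this was 0.64 with the same sum, 0.81 with the same median, 0.78 with the same upper quartile, 0.79 without S-Lap7 (the most abundant member) and 1.03, on the other side of equality, with the same testis list sum, but 0.88 with that sum taken without Mst84Da and Mst84Dd and 0.95 with the median ratio of the testis lists set to equality. Dropping the filter or raising it to a mean FPKM of 10 left the family's values as they were, since all 8 members pass both. Each group has a single library, so the spread between flies is not known, and depth is not known either.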

Other observations

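Some genes of the lists share a deposited feature with another gene and entered no count. The feature of betaTub85D, the testis beta-tubulin of the sperm tail, and Task7 had 195 FPKM in control and 149 FPKM in miR-305. That of Pif1A, Pif1B and CG33191 had 161 and 135 FPKM, and that of janA and janB had 74.1 and 75.9 FPKM. The feature of the cup gene c-cup and the microRNA mir-2280 went the other way, with 51.7 FPKM in control and 166 FPKM in miR-305. The feature of Acp26Aa and Acp26Ab, seminal fluid genes, had 985 and 1527 FPKM.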
